A study of Mus musculus with 6 samples.

Results

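Histone genes were taken from a deposited expression table by symbol. They were the protein-coding genes of the GENCODE M21 annotation whose symbol starts with Hist1h, Hist2h, Hist3h or Hist4, and 7 replacement genes given by name (H1f0, H2afx, H2afz, H2afv, H2afy, H3f3a and H3f3b). This gave 74 of the 54532 genes in the table. Of these, 67 were replication-dependent: 6 H1, 18 H2A, 18 H2B, 12 H3 and 13 H4 genes. Another 3 matching symbols were pseudogenes and were left out.

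RNA came from eYFP-positive cells that were sorted from fetal livers of CD-1 mice. All animals had the genotype Sm22-Cre/ROSA26RYFP, in which the promoter of Sm22 (Tagln, a smooth muscle gene) drives Cre and Cre switches on a yellow fluorescent reporter. One group was at embryonic day 16 (E16) and the other at embryonic day 18 (E18), with 3 libraries each, lettered A, B and C; both groups carried the same alleles and had no treatment named in the labels. Whether each library is its own litter, animal or pool is not stated, and p-values therefore describe the spread between libraries, which may be technical.

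Chromatin wraps DNA around nucleosomes built from the core histones H2A, H2B, H3 and H4, and the linker histone H1 binds the DNA between them. Replication-dependent genes supply the bulk of these proteins while DNA is copied in S phase. Their mRNAs have no poly(A) tail and end instead just after a conserved stem-loop that is bound by the protein SLBP. Replacement genes are transcribed outside S phase too, their mRNAs are usually spliced and polyadenylated, and their proteins are deposited at particular sites or times. Libraries here were made from total RNA with a stranded kit, so mRNAs without a poly(A) tail could be counted. Late fetal liver is also a site of red cell formation, in which precursors divide rapidly.

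The stem-loop is the sequence that sets the families apart, and it was searched for in the first 100 bases after the stop codon of each GENCODE M21 transcript. The search took any 6 bases beginning GG, a loop of 4 bases beginning with T, and 6 bases that pair with the first 6. Of the 48 replication-dependent genes with at least 60 annotated bases there, 44 held a stem-loop and 4 did not. The other 19 gene models end sooner, and a match was still found in Hist1h2ap and Hist1h4m, with 57 and 52 bases, and none in the remaining 17, most of which are too short to hold it. Among 20621 other protein-coding genes with at least 60 bases there, 22 held such a match (0.107%). The distance from the stop codon to the stem was 21 to 58 bases, with a median of 31. Examples from each class follow, 5′ to 3′ on the transcript (GRCm38), with the stem in capitals.
Hist1h1c, chr13:23739507-23739532: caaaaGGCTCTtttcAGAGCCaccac
Hist1h2ab, chr13:23751567-23751592: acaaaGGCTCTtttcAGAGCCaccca
Hist3h2ba, chr11:58949344-58949369: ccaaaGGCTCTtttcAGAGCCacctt
Hist1h3b, chr13:23752815-23752840: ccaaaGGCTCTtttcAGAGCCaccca
Hist1h4i, chr13:22040961-22040986: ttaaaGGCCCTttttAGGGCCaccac
Hist1h4j, chr13:21735432-21735457: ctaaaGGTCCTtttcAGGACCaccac
H2afx, chr9:44335235-44335260: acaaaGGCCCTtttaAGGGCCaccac
The stem divided the classes. All stems found in replication-dependent H1, H2A, H2B and H3 genes (4, 11, 10 and 9) had the arm GGCTCT, whereas 10 H4 genes had GGCCCT and 2 had GGTCCT. Of the 7 replacement genes, only H2afx held a match, with the GGCCCT arm seen otherwise in H4. The 4 replication-dependent genes with none in the window were Hist1h2bc, Hist1h2bq, Hist1h2br and Hist2h2be, all of H2B. A match describes letters and not a used 3′ end.

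Promoters also differed by class. RefSeq start sites (GRCm38.p6) were matched for 68 of the 74 genes, and the 250 bases before each start were searched on both strands for the letters CCAAT of the CCAAT box, for the core TATAAA of the TATA box and for the octamer ATTTGCAT. CCAAT stood in 51 of 62 replication-dependent promoters, against 34.5% of all 27025 promoters of the same length. It was in every H1, H2A and H2B promoter matched (6, 18 and 16), in 8 of 10 for H3 and in 3 of 12 for H4. TATAAA stood in 29 of 62 replication-dependent promoters, against 13% of all. The octamer stood in 7 of 18 H2A and 6 of 16 H2B promoters, in 0 of 6, 10 and 12 for H1, H3 and H4, and in 1.61% of all promoters. Many H2A and H2B genes start close together in opposite directions, so their windows overlap and a match can count for both. The H2A and H2B counts, and the totals that hold them, are therefore not of separate promoters. The last 150 bases before the start are shown for 4 genes that recur in the results, with these motifs in capitals on whichever strand they lay: the most abundant H2A gene, the H2B gene with the smallest p, the most abundant H4 gene and the most abundant replacement gene.
Hist1h2ab, chr13:23750938-23751087, plus strand: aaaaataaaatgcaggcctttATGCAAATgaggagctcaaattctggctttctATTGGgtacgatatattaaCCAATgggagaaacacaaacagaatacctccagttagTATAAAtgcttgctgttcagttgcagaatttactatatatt
Hist3h2ba, chr11:58948761-58948910, plus strand: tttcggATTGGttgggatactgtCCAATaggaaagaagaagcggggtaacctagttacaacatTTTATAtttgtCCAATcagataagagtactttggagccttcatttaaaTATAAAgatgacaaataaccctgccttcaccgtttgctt
Hist1h4k, chr13:21750554-21750703, minus strand: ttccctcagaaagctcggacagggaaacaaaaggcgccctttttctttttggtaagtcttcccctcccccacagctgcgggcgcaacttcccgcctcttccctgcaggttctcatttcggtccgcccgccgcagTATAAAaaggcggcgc
H2afz, chr3:137864337-137864486, plus strand: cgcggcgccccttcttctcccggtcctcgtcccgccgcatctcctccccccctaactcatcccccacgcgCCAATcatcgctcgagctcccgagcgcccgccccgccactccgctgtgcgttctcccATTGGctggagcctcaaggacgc
The H2A and H2B promoters shown hold both boxes, the H4 promoter holds a TATA box without CCAAT, and the H2afz promoter holds CCAAT without a TATA box. No match says only that these letters are absent from the window.

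Values are TPM, which divide reads by gene length and set each library to the same total. Reads recovered from the table numbered 21130198 to 22626885 per library at E16 and 14587545 to 18281942 at E18. Every E18 library was thus shallower than every E16 library. Transcripts of other cell types were present. Summed TPM of 15 erythroid markers (most abundant: Hba-a1) was 6622 to 8393 at E16 and 12250 to 20478 at E18. The sum of 12 hepatocyte markers (Alb) was 2240 to 9203 and 367 to 974, and that of 13 smooth muscle and fibroblast markers (Col1a1) was 387 to 762 and 2147 to 5635. Sums of 5 mesothelial markers (Upk3b) were 18.9 to 20.0 and 68.2 to 120.0, of 11 leukocyte markers (Cd68, with Adgre1 at 0 throughout) 41.9 to 59.4 and 44.4 to 118, of 5 megakaryocyte markers (Ppbp, with Gp1bb at 0 throughout) 22.4 to 60.5 and 32.6 to 106, and of 5 endothelial markers (Egfl7) 26.7 to 40.5 and 15.1 to 24.2. Mesenchymal markers were present in every library, beside a larger erythroid sum. In bulk samples, fewer cells of a type and less RNA per cell cannot be told apart. The non-coding gene Gm26917 stood at 198072 to 339083 TPM, highest in E16 A, and its part in the results below is given through other scalings.

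Replication-dependent histone mRNAs were abundant on both days. Their TPM summed to 24057 in E16 A, 37445 in B and 39908 in C, and to 44016 in E18 A, 39750 in B and 43366 in C. Means were 33803 ± 8530 for E16 and 42377 ± 2299 for E18 (SD, n = 3 each), a ratio of 1.25. E16 A was the lowest library, and the E18 range began just below the highest E16 library, so the days overlapped. Without E16 A the ratio was 1.10. As a share of protein-coding TPM the sum was 5.57%, 6.47% and 7.91% at E16 and 8.39%, 7.76% and 7.93% at E18.

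Replacement histone mRNAs summed to 839, 1252 and 1048 TPM at E16 and 1073, 1131 and 1041 at E18. The ratio of means was 1.03, and the days overlapped. Replication-dependent mRNA exceeded replacement mRNA by 28.7 to 38.1 times in the E16 libraries and by 35.1 to 41.6 times in the E18 libraries, also overlapping. These sums and their ratio were described without a test.

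**Figure D1:**
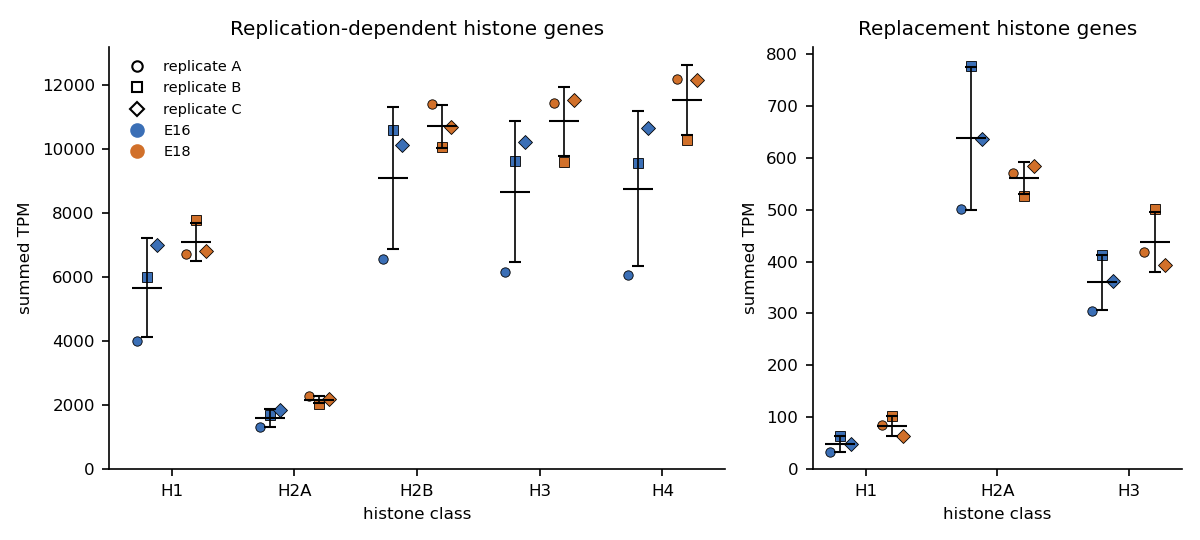
Summed TPM (linear axes from 0) of replication-dependent genes by class (left) and of replacement genes by class (right). Each symbol is 1 library, and the bar and whiskers are the mean ± SD of 3 libraries. E16 A is the lowest symbol in every replication-dependent class, and H2A is the class whose days do not overlap.

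The 5 replication-dependent classes were not equally abundant in TPM. Mean sums at E16 and E18 were 5668 and 7098 for H1, 1610 and 2170 for H2A, 9094 and 10714 for H2B, 8668 and 10864 for H3, and 8763 and 11531 for H4. H2A sums stood at 1300, 1680 and 1851 TPM in the E16 libraries and 2277, 2041 and 2193 in those of E18. H2A was therefore higher in every E18 library than in any E16 library, by 1.35 times on average and by 1.23 times without E16 A, while the sums of the other classes overlapped. The 18 H2A gene models differ from the rest in that all of them lie in part under an exon on the opposite strand, over a median of 31.1% of their bases, against 1 gene each of H2B, H3 and H4. Whether the counting left out reads in such shared stretches is not given in the sources used here, and its part in the low H2A level was not tested. TPM also depends on the annotated length, which ran from 312 bases for Hist1h4k, whose model ends at the stop codon, to 7425 for Hist1h1d. The order of levels among these genes therefore holds for these gene models.

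Of the 74 genes, 66 passed the filter of at least 1 TPM in at least 3 libraries and were tested, 59 replication-dependent and 7 replacement. The 8 others were Hist1h2aa, Hist2h2aa1, Hist2h2aa2, Hist2h2bb, Hist2h3c1 and Hist2h3b, listed at 0 in every library, and Hist2h2ab and Hist1h4b, at no more than 4.17 and 1.71 TPM. Several of those listed at 0 lie on chromosome 3 under exons of other gene models or beside near-identical copies, where reads can be lost or split, so a 0 there does not show that the gene was silent.

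No histone gene passed the threshold between E16 and E18 in the fit used throughout. With limma on log2(TPM + 1) and an adjusted p under 0.05 over all genes, 0 of 66 were called, against 618 of 17824 genes tested (3.47%). Unadjusted p was under 0.05 for 9 of 66 histone genes, against 20.9% of all genes tested. Limma's voom on recovered reads also called 0, with 17 of 66 under 0.05 unadjusted against 21.3% of all. Other settings did make histone calls. With array weights, which let noisier libraries count less, 11 of 66 were called, against 24.2% of all genes. The weights were 3.76 for E16 C and 3.62 for E18 A, and 0.48 to 0.60 for the other libraries. That fit, and its p-values given below, thus rest mostly on E16 C and E18 A. Hist3h2ba alone was called with quantile, protein-coding or Gm26917-free scaling. Over all genes these scalings called 399 of 17824, 548 of 19723 and 658 of 18711. The background itself is fragile, since limma called 0 genes when E16 A, E16 C, E18 A or E18 B was left out, 55 without E16 B and 664 without E18 C. Calls were 88.8% in the higher direction here and 78.7% after quantile normalization.

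Signs and ranges leaned towards E18. The fitted log2 difference, E18 minus E16, was above 0 for 57 of 59 replication-dependent genes, with a median of 0.37, and for 5 of 7 replacement genes, with a median of 0.21. Over all genes tested the median was 0.07 and 57.0% of values were above 0. Over the 8906 of them with a mean of at least 10 TPM, the median was -0.007 and 49.1% were above 0. Of those 8906, 14.6% were higher and 10.4% lower at E18 without overlap. All 3 E18 values lay above all 3 E16 values for 17 of 66 histone genes (25.8%), each of them replication-dependent, against 18.4% of all genes tested. All 3 lay below for 0 of 66, against 8.05%. With TPM rescaled to protein-coding genes, 15 of 59 replication-dependent and 3 of 7 replacement genes lay above, against 15.5% of all genes, and 1 replacement gene lay below, against 12.2%. Quantile normalization moved the median of all genes from 0.07 to -0.08, and the replication-dependent and replacement medians were then 0.32 and 0.11.

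A single library carried much of this lean. E16 A was the lowest of the 6 libraries for 59 of 66 histone genes (55 of 59 replication-dependent and 4 of 7 replacement), against 24.7% of all genes tested. Measured from each gene's own mean over the 6 libraries in log2(TPM + 1), the replication-dependent median was -0.60 in E16 A, 0.01 in E16 B and 0.02 in E16 C, and 0.24, 0.13 and 0.20 in E18 A, B and C. The same median over all genes tested was -0.08 in E16 A. When TPM were rescaled to protein-coding genes, E16 A was lowest for 42 of 59 replication-dependent genes, against 11.3% of all genes, and their median there was -0.37 against 0.16 for all genes. Without E16 A the replication-dependent median was 0.16 rather than 0.37 and the number above 0 was 46 rather than 57 of 59, and the replacement median was also 0.16. Array weights gave 0.25 and 0.23. The replacement median also moved without E18 A (0.11), E18 B (0.03) and E18 C (0.35).

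**Figure D2:**
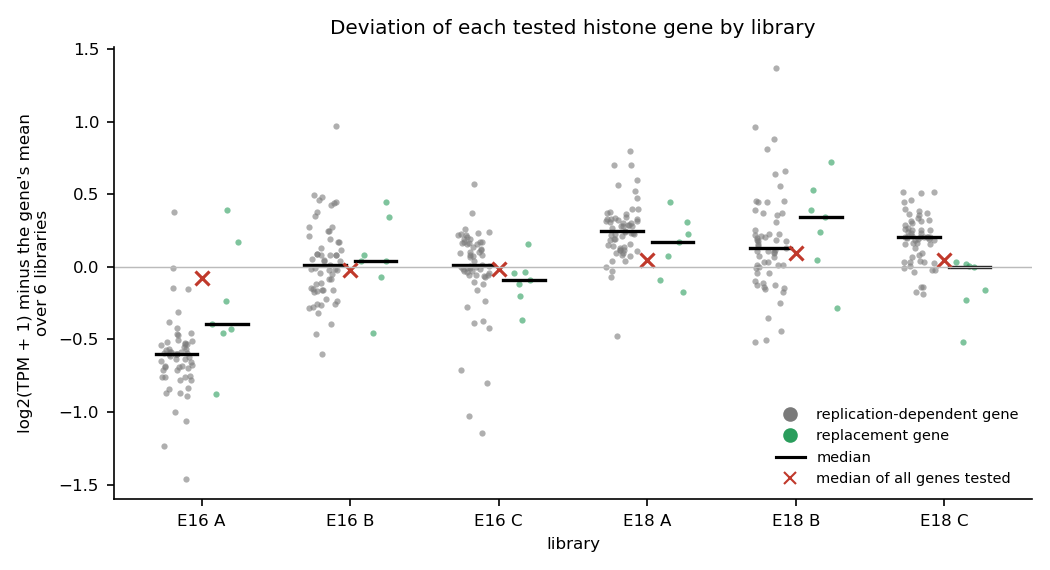
Deviation of each tested histone gene from its own mean over 6 libraries, in log2(TPM + 1), by library. Grey points are 59 replication-dependent and green points 7 replacement genes, black bars their medians and red crosses the median of all 17824 genes tested; the replication-dependent median is -0.60 in E16 A and between 0.01 and 0.24 in the others.

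Marker sums of other cell types were also read in that library. In E16 A the erythroid sum was 6622 TPM against 8393 and 7539 in E16 B and C, the hepatocyte sum was 2769 against 9203 and 2240, and the smooth muscle and fibroblast sum was 387 against 462 and 762. E16 A was the lowest of the 6 libraries for 8 of 15 erythroid, 0 of 12 hepatocyte and 9 of 13 smooth muscle and fibroblast markers. Over all genes tested it was lowest for 24.7%, against which the counts below are also to be read. The part of cell mixture or RNA quality in the low histone values of E16 A was not tested. Among 40 genes of DNA replication and S phase, E16 A was lowest for 21, with a median deviation of -0.21. Among 25 mitosis genes it was lowest for 12, with a median deviation of -0.27. The mitosis median was 0.12 in E16 B and -0.19 in E16 C, so this list was low in E16 C too. Both lists were lower in E16 A than the -0.08 of all genes and less far down than the replication-dependent histones.

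Linker histone H1 was carried mainly by Hist1h1b (H1.5) and Hist1h1a (H1.1). Hist1h1b (chr13:21779883-21780625) stood at 1957, 3063 and 3182 TPM at E16 and 3130, 3368 and 3367 at E18. Its log2 difference was 0.30 ± 0.35 (SE; limma adjusted p = 0.70), and 0.07 without E16 A. Hist1h1a (chr13:23763666-23764406) stood at 1275, 1785 and 2599 TPM and then 2168, 2598 and 1960, with a difference of 0.30 ± 0.34 (limma adjusted p = 0.69), 0.05 without E16 A and -0.07 with array weights. Days overlapped for both.

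Hist1h1c (H1.2), a linker gene that many non-dividing cells keep expressing, had the smallest p of the replication-dependent H1 genes. Its values were 426, 591 and 693 TPM at E16 and 843, 1140 and 830 at E18, which do not overlap. The log2 difference was 0.73 ± 0.24 with a limma adjusted p of 0.14, so it did not pass the threshold, and it was 0.53 without E16 A. The difference of Hist1h1e (H1.4) was 0.51 ± 0.24, and no test compared these genes with each other. The replacement linker gene H1f0 (H1.0), known to accumulate in differentiated cells, stood at 33.1, 63.4 and 47.5 TPM and then 84.1, 102 and 63.2. E18 C lay just under E16 B, so the ranges overlapped, and the difference was 0.80 ± 0.27 (limma adjusted p = 0.15, or 0.0135 with array weights). The testis gene Hist1h1t stayed between 1.86 and 10.4 TPM in all libraries.

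In H2A, all 14 replication-dependent genes tested had a log2 difference above 0, with a median of 0.56 (0.37 without E16 A). For 6 of them the days did not overlap, with E18 higher. Over all genes tested, 57.0% were above 0 and 18.4% were higher at E18 without overlap. Hist1h2ab (chr13:23751126-23751598), the most abundant, stood at 424, 513 and 625 TPM at E16 and 915, 725 and 750 at E18. The days did not overlap, and its difference was 0.62 ± 0.21 (limma adjusted p = 0.14, or 0.0343 with array weights). Hist1h2ak (chr13:21753435-21753827) was at 122, 161 and 188 TPM and then 254, 249 and 216. Its days did not overlap either, with a difference of 0.63 ± 0.18 (limma adjusted p = 0.10, or 0.0365 with array weights).

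Hist1h2ae (chr13:23570517-23571220) was a low H2A gene at 20.8, 20.96 and 31.4 TPM at E16 and 41.2, 60.3 and 33.2 at E18. Its difference was 0.84 ± 0.26 (limma adjusted p = 0.12), and the lowest E18 library lay just above the highest E16 library. Hist1h2an, at 252 to 268 TPM and then 279 to 333, had a difference of 0.21 ± 0.13 (limma adjusted p = 0.42). Hist1h2ai, at 165 to 243 TPM and then 189 to 218, overlapped between days. Its difference of 0.04 ± 0.17 (limma adjusted p = 0.93) became -0.05 with median-of-ratios scaling, -0.03 with protein-coding scaling and -0.10 without E16 A.

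Replacement H2A genes followed no common direction. H2afz encodes H2A.Z, a variant placed at promoters and regulatory elements. It was the most abundant replacement gene, at 412, 660 and 541 TPM at E16 and 455, 398 and 487 at E18. The days overlapped, and the difference was -0.25 ± 0.21 (limma adjusted p = 0.58). H2afx encodes H2A.X, which is phosphorylated at DNA breaks. It was at 35.3, 50.3 and 42.3 TPM and then 57.3, 64.3 and 48.8, a difference of 0.41 ± 0.18 (limma adjusted p = 0.24, or 0.0289 with array weights).

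H2afv, a second H2A.Z gene, ran from 27.7 to 48.0 TPM at E16 and from 31.9 to 44.6 at E18. Its difference was 0.12 ± 0.23 (limma adjusted p = 0.83), and -0.07 without E16 A. H2afy, which encodes macroH2A1, a variant found on silent chromatin, ran from 18.4 to 25.7 TPM and from 17.04 to 20.05, with a difference of -0.19 ± 0.19 (limma adjusted p = 0.65). In TPM as deposited, days overlapped for all 4 of these H2A variants. After rescaling to protein-coding genes, 3 of the 7 replacement genes were higher at E18 without overlap and 1 was lower. The shares over all genes tested were then 15.5% and 12.2%.

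For H2B, all 17 genes tested had a difference above 0, against 57.0% of all genes tested. Their median of 0.28 shrank to 0.06 without E16 A. Hist3h2ba (chr11:58948920-58949533), outside the main clusters, had the smallest p of all histone genes. It stood at 52.0, 79.9 and 66.9 TPM at E16 and 147, 105 and 123 at E18, so every E18 library was above every E16 library. The log2 difference was 0.92 ± 0.20 with a limma adjusted p of 0.053. It passed at 0.038 with protein-coding scaling, at 0.040 after quantile normalization, at 0.037 when Gm26917 was left out of the scaling and at 0.0040 with array weights. Over all alternatives run its adjusted p was 0.0040 to 0.16, and its difference without E16 A was 0.75. Its neighbour on chromosome 11, Hist3h2a, was low, at 1.01 to 3.41 TPM and then 3.04 to 10.5.

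The abundant H2B genes had smaller differences. Hist1h2bn was at 1761, 2487 and 2508 TPM at E16 and 3073, 3014 and 2572 at E18. These ranges came close without overlapping, and the difference was 0.37 ± 0.31 (limma adjusted p = 0.57). Hist1h2bj ran from 1020 to 1765 TPM and from 1418 to 1783, a difference of 0.18 ± 0.30 (limma adjusted p = 0.80) that was -0.08 without E16 A. Hist1h2bl ran from 735 to 1219 TPM and from 1217 to 1321, a difference of 0.30 ± 0.26 (limma adjusted p = 0.59). The 4 H2B genes without a stem-loop in the searched window had differences of 0.28 (Hist1h2bc), 0.18 (Hist1h2bq), 0.17 (Hist1h2br) and 0.51 (Hist2h2be), inside the range of 0.11 to 0.92 of the class.

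**Figure D3:**
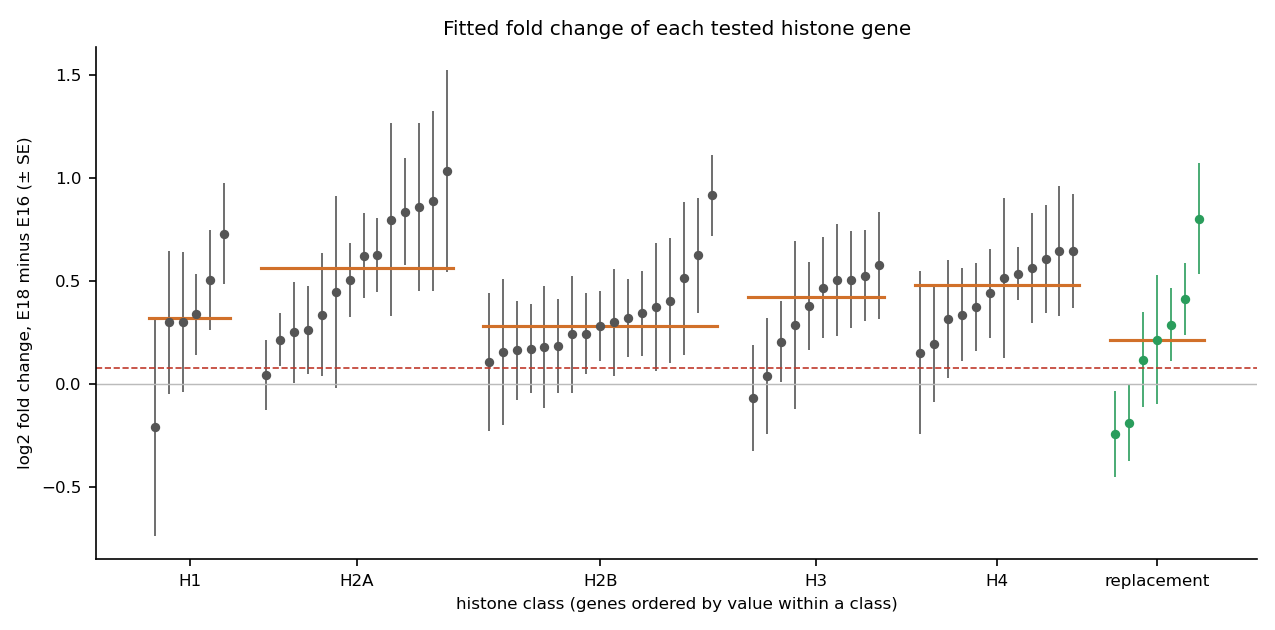
Log2 fold change, E18 minus E16, on the log2(TPM + 1) scale with its SE for 66 tested histone genes, ordered by value within each replication-dependent class and, in green, for the replacement genes. Orange lines are medians (0.32 for H1, 0.56 for H2A, 0.28 for H2B, 0.42 for H3, 0.48 for H4 and 0.21 for replacement genes), and the dashed line is the median of all genes tested, 0.07.

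Histone H3 was led by Hist1h3b (chr13:23752267-23752886), at 2494, 3919 and 4087 TPM at E16 and 4587, 3341 and 4731 at E18. The days overlapped, and the difference was 0.29 ± 0.41 (limma adjusted p = 0.76), or 0.06 without E16 A. Hist1h3c was at 837 to 1259 TPM and then 1373 to 1632, without overlap, a difference of 0.47 ± 0.24 (limma adjusted p = 0.34). Hist1h3i was at 686, 1074 and 1164 TPM and then 1498, 1329 and 1430, again without overlap, a difference of 0.58 ± 0.26 (limma adjusted p = 0.27). The class median was 0.42 over 10 genes, and 0.19 without E16 A.

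The 2 replacement H3 genes encode the same protein, H3.3, which is deposited outside replication. H3f3b was at 287, 401 and 348 TPM at E16 and 398, 479 and 382 at E18, with a difference of 0.29 ± 0.18 (limma adjusted p = 0.43). H3f3a was at 17.8, 11.2 and 15.3 TPM and then 19.7, 23.2 and 10.7, with a difference of 0.21 ± 0.31 (limma adjusted p = 0.77). Days overlapped for both, and reads of the many processed copies of these genes could be split from them in counting. Replacement genes gave 4.09% ± 0.65 of H3 TPM in E16 libraries and 3.93% ± 0.91 in E18 libraries (SD, n = 3).

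Histone H4 has no replacement gene in the rule. Hist1h4k (chr13:21750194-21750505) was at 1926, 2797 and 3768 TPM at E16 and 4033, 3504 and 4199 at E18, overlapping, with a difference of 0.52 ± 0.39 (limma adjusted p = 0.53). Hist1h4n ran from 1081 to 2213 TPM and from 1209 to 2381. Its difference of 0.15 ± 0.40 (limma adjusted p = 0.88) was -0.15 without E16 A, -0.04 without E18 C and -0.04 after quantile normalization. Hist1h4m ran from 899 to 1405 TPM and from 1094 to 1699, a difference of 0.32 ± 0.29 (limma adjusted p = 0.61).

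Hist1h4i (chr13:22040636-22041362) was the H4 gene with the smallest p and an exception to the low values of E16 A. Its values were 162, 149.5 and 138 TPM at E16 and 224, 197 and 231 at E18. All E18 values lay above all E16 values, and E16 A was the highest of its day. The difference was 0.54 ± 0.13 with a limma adjusted p of 0.067, and it was 0.59 without E16 A. Over the alternatives its adjusted p ran from 0.0050 (array weights) to 0.23.

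Shares within a class do not depend on the library total, on Gm26917 or on a loss common to all histone mRNAs. A loss particular to replication-dependent or to replacement mRNAs would still move them, and was not tested. H2afz made up 22.9%, 26.9% and 21.7% of all H2A TPM at E16 and 16.0%, 15.5% and 17.5% at E18. Every E18 share was below every E16 share, and the means were 23.8% ± 2.7 and 16.3% ± 1.1 (SD, n = 3). Leaving out any library gave a difference of -8.54 to -5.98 percentage points, whose sign the lack of overlap fixed in advance. All replacement H2A genes together gave 28.3% ± 3.0 and then 20.5% ± 0.50 of H2A TPM, also without overlap.

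Hist1h1c took a larger share of H1 at E18 on the same scale. It gave 10.6%, 9.76% and 9.82% of H1 TPM at E16 and 12.4%, 14.5% and 12.1% at E18. Hist3h2ba gave 0.793%, 0.755% and 0.660% of H2B TPM and then 1.29%, 1.05% and 1.15%. In H2A, Hist1h2ab went from 23.2% ± 2.1 to 29.1% ± 2.7 and Hist1h2ak from 6.97% ± 0.53 to 8.80% ± 0.97, while Hist1h2ai went from 9.07% ± 0.86 to 7.59% ± 0.22. In H3, Hist1h3i went from 10.8% ± 0.20 to 12.6% ± 0.58 and Hist2h3c2 from 7.01% ± 0.39 to 7.80% ± 0.21, while Hist1h3e went from 10.8% ± 0.86 to 8.70% ± 0.34.

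These 9 of the 66 tested genes were those whose shares did not overlap between days, 6 higher and 3 lower at E18, and no H4 gene was among them. They were singled out by their values, and 3 against 3 libraries cannot give an exact permutation p below 0.1, so they are a description. A share of a class has no counterpart over all genes. On the TPM scale, 18.4% of all genes tested were higher and 8.05% lower without overlap. The 6 and 3 of 66 do not exceed these percentages, but the scales differ, so nothing is concluded from that. Between classes, the ratio of replication-dependent H2B to H2A TPM was 5.04, 6.30 and 5.48 at E16 and 5.00, 4.93 and 4.87 at E18, and that of H4 to H3 was 0.982, 0.996 and 1.04 and then 1.06, 1.07 and 1.05.

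**Figure D4:**
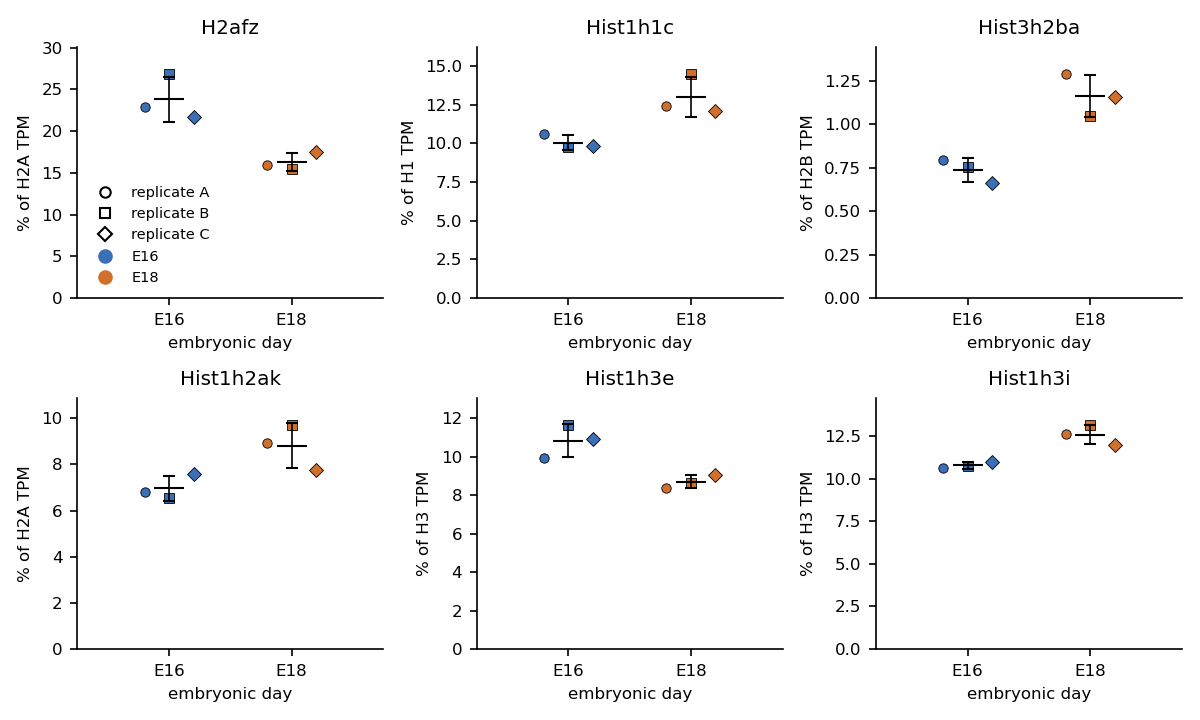
Share of 6 genes in the TPM of their own histone class (percent, axes from 0) at E16 and E18. Each symbol is 1 library, and the bar and whiskers are the mean ± SD of 3 libraries; H2afz and Hist1h3e are lower, and the other 4 higher, in every E18 library than in any E16 library.

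Replication-dependent genes varied together across the 6 libraries, with E16 A the lowest for 55 of 59. Ranks of the 66 tested genes by TPM agreed closely between libraries, with Spearman correlations of 0.976 to 0.994 over the 15 pairs of libraries. Across the 6 libraries, the median Pearson correlation of log2(TPM + 1) over the 1711 pairs of replication-dependent genes was 0.74, and 95.9% of pairs were above 0. All points share the same libraries, totals and day difference, so this is a description and carries no p. The pair correlations were not computed without E16 A, nor for pairs of other genes. The 5 genes outside the histone family that followed the replication-dependent sum most closely over the 6 libraries, of 8841 with a mean of at least 10 TPM, were Gsk3b (r = 0.99), Ube2o (0.99), Nudt9 (0.99), Rnf19b (0.98) and Ndufb8 (0.98). Each of these 5 was lowest in E16 A. Gsk3b stood at 23.7 TPM there and 29.0 to 31.3 elsewhere, and Ube2o at 38.6 and 45.8 to 48.6. Their r values thus reflect mostly that 1 library.

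Replication-dependent genes lie in few places in the genome. On chromosome 13, 23 genes lay between 21715763 and 22043676 and 31 between 23531050 and 23934851 (GRCm38). The median log2 difference was 0.30 over the 23 tested in the first block and 0.38 over the 29 tested in the second, and values without overlap and higher at E18 were seen for 7 of 23 and 8 of 29 genes, against the 18.4% of all genes tested. On chromosome 3, 4 of 10 genes were tested, with a median of 0.51. The summed TPM of the pair on chromosome 11 was 55.4, 82.3 and 67.9 at E16 and 151, 116 and 126 at E18, without overlap, and Hist3h2ba made up most of it.

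Within these blocks, 13 pairs of genes lay head to head with at most 1000 bases between them, of which 12 paired an H2A with an H2B gene. The gaps ran from 175 to 659 bases. Of the 11 H2A and H2B pairs with both genes tested, the H2B gene had the higher mean TPM in 8 and the H2A gene the larger log2 difference in 8. Hist1h2ag and Hist1h2bj, for example, lay 269 bases apart and averaged 48.2 and 1575 TPM, with differences of 0.86 and 0.18. Hist1h2ak and Hist1h2bn lay 295 bases apart, with differences of 0.63 and 0.37. Hist1h2ap and Hist1h2br, in contrast, averaged 93.3 and 92.7 TPM. The overlap of H2A models with opposite-strand exons applies to these pairs too.

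Genes that make and handle histone mRNA gave no call. The counts at an unadjusted p under 0.05 that follow are to be read against the 20.9% of all genes tested. Of 33 genes of histone gene transcription and mRNA processing, 0 were called (1 had an unadjusted p under 0.05 by limma) and the median log2 difference was -0.06. E2f1, a transcription factor of S phase entry, stood at 47.6, 44.8 and 45.7 TPM at E16 and 69.3, 64.6 and 53.2 at E18, without overlap, a difference of 0.42 ± 0.14 (limma adjusted p = 0.14). Hinfp, which activates H4 genes, had a difference of 0.37 ± 0.16 (limma adjusted p = 0.25), and Cpsf1 one of -0.34 ± 0.16 (limma adjusted p = 0.30). Slbp, which also stands in the S phase list, was at 88.7, 98.2 and 100.03 TPM and then 151, 148 and 92.4, overlapping (limma adjusted p = 0.32).

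Of 31 histone chaperones, 0 were called (4 under 0.05 unadjusted by limma), with a median of -0.04. The 3 with the smallest p had lower values at E18: Nap1l1, which carries H2A and H2B, at 153, 177 and 175 TPM and then 110, 104 and 138, a difference of -0.52 ± 0.15 (limma adjusted p = 0.098). Npm1, a nucleolar chaperone, had a difference of -0.90 ± 0.29 (limma adjusted p = 0.13), and Set one of -0.70 ± 0.24 (limma adjusted p = 0.16).

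Of 40 genes of DNA replication and S phase, 0 were called (5 under 0.05 unadjusted by limma), with a median of 0.08. The median was 0.07 over all genes tested and -0.007 over those with a mean of at least 10 TPM. Gins4, Tk1 and Gins1 had the smallest p, with differences of 0.36, 0.33 and 0.31 (limma adjusted p = 0.16, 0.21 and 0.21). Of 25 mitosis genes, 0 were called (7 under 0.05 unadjusted by limma), with a median of 0.23, and Nusap1, Ube2c and Smc4 had differences of 0.70, 0.48 and 0.35 (limma adjusted p = 0.12, 0.12 and 0.13). The replication-dependent histone median of 0.37 stood beside 0.08 for the S phase list and 0.23 for the mitosis list. E16 A was the lowest library for 55 of 59 replication-dependent, 21 of 40 S phase and 12 of 25 mitosis genes. Without E16 A the replication-dependent median was 0.16, and the list medians were not computed without that library. Whether these medians differ was not tested.

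Other chromatin genes gave no call either. Of 5 further histone variants tested, 0 were called (0 under 0.05 unadjusted by limma), and the smallest p was that of H2afy2 (macroH2A2), a low gene. It was at 1.21, 1.52 and 3.83 TPM at E16 and 3.33, 13.4 and 3.58 at E18, so that E18 B alone lay above E16 C, and its difference was 1.13 ± 0.56 (limma adjusted p = 0.31). H3f3c and H2afy3 had differences of 0.55 and -0.51. Of 8 HMG genes tested, whose proteins bind nucleosomes and compete with H1, 0 were called (1 under 0.05 unadjusted by limma). Hmga1 stood at 248, 314 and 361 TPM at E16 and 108, 77.0 and 183 at E18. All E18 values lay below all E16 values, with a difference of -1.39 ± 0.31 (limma adjusted p = 0.058). Hmgb2 and Hmgb3 had differences of 0.27 and -0.29.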

How the data were processed

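TPM values (length-normalized abundance with the same total in each library) of 54532 genes in 6 libraries were used as the authors deposited them. Per the submitters' processing notes, the tools included HISAT2 2.1.0, HTSeq 0.5.4p3, FastQC 0.11.7 and Bowtie, with mm10. The formula, strand setting and annotation release were not given in the sources used here. Reads were recovered as TPM times merged exon length of GENCODE M21, and 96.8% to 97.1% of values per library were whole within 0.05 of a read.

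Genes with at least 1 TPM in at least 3 libraries (17824) were fitted on log2(TPM + 1) in limma 3.58.1 under R 4.3.3, with an intensity trend, 2-sided p-values and Benjamini-Hochberg adjustment over all of them. Fold changes on this scale understate low genes. The steps were tested on simulated data. Histone genes, pathway lists and marker lists were chosen with earlier results of these data known. Genes named were the 3 most abundant of each replication-dependent class, all replacement genes, the 4 histone genes with the smallest p, the 3 smallest p of each pathway list, and the 5 closest followers of the replication-dependent sum. Class shares, head-to-head pairs, Slbp and other histone genes were singled out after their values were seen. Alternatives covered pseudocount, filter, scaling, trend, weights, block, voom and leaving out each library. Sequence searches used GENCODE M21 transcripts and RefSeq promoters. Figures were drawn with Matplotlib 3.10.9.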

Additional observations from a re-analysis of the deposited data

How the results depend on the processing

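The medians of the replication-dependent and replacement genes and the log2 ratio of the replication-dependent sum (0.33) stayed above 0 and within their spread between libraries (0.25, 0.20 and 0.29) in all 18 planned and 2 added alternatives, where each was run. The spread was taken over these same libraries, E16 A included, so a value within it after leaving out a library is a weak check. Leaving out 1 library gave 0.16 to 0.49, 0.03 to 0.35 and 0.13 to 0.46. Calls over all genes, 618, were 347 at a pseudocount of 5, 0 without a filter, 363 at a mean of at least 5 TPM, 399 after quantile normalization, 4316 with array weights, 1446 with voom, and 0 to 664 with 1 library left out, and 0 without E16 A under protein-coding scaling. Histone calls, 0, were 1 (Hist3h2ba) with quantile, protein-coding or Gm26917-free scaling, 11 with array weights, and 0 with voom or any library left out. Same-letter libraries did not deviate together (r = 0.10, -0.14 and -0.12), and a replicate block by letter called 0 genes and 0 histone genes. Of 520 values for 26 named histone genes, 13 changed sign, in 5 genes. Hist1h2ai was -0.051 by median-of-ratios scaling, -0.031 by protein-coding scaling, -0.068 by that scaling without E16 A, and -0.10 to 0.18 with 1 library left out. Hist1h4n was -0.039 by quantile normalization, -0.12 by protein-coding scaling without E16 A, and -0.15 to 0.45 with 1 library left out. Hist1h1a was -0.067 with array weights. Hist1h2bj and H2afv were -0.041 and -0.033 by protein-coding scaling without E16 A, and -0.076 to 0.32 and -0.067 to 0.32 with 1 library left out. The cause was not tested. Of the 54 leave-out values of the 9 class shares, 0 changed sign. This was fixed in advance, because these shares were chosen for not overlapping between days. Recovered reads per library for tested histone genes ran from 4 to 16411, so low genes such as Hist3h2a and Hist1h1t are coarse.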
